A study of Danio rerio with 3 samples.

Results

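The comparison described here set the liver array of zebrafish larvae that received a high-cholesterol diet (HCD) together with berberine (BBR) against the liver array of larvae on the HCD alone. Of the 3 arrays in the series, these were 2, with 1 array for each group. All larvae were of the AB strain and received their diets for 10 days, from 5 to 15 days post-fertilization (dpf). The HCD group was given 180 mg of AP100, a larval feed, with 4% cholesterol for each 100 fish per day, and the BBR group was given this same diet and exposed to berberine at 5 μM. The control group, whose array took no part in the choice of genes, was given 30 mg of AP100 for each 100 fish per day, so it differed from HCD in the amount of food as well as in cholesterol. How many larvae contributed to an array is not given in the sources used here.

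Every gene with a usable probe was taken, in both directions. Of 27713 genes measured on the HCD and BBR arrays, 25446 had a signal well above background on at least 1 of them and were counted, 24088 of these on both arrays, 1246 on the BBR array only, and 112 on the HCD array only. A level is given as the log2 signal of a gene's brightest probe minus the 75th percentile of its array, so that a level of 0 is as bright as that percentile, and levels of different genes are not comparable with each other. A difference is the BBR level minus the HCD level, and a gene was called at a 2-fold difference, which is 1 on the log2 scale. Where a gene was well above background on 1 array only, the lowest signal well above background on the other array stood in for any level under it, which makes its fold a lower bound. Such a bound holds for this scaling and not for others. Each group had 1 array, so the differences have no check by replicates and carry no P value.

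Berberine is a plant alkaloid that is known to lower blood cholesterol. Cholesterol is made from acetyl-CoA through mevalonate, squalene, and lanosterol, and in vertebrates the genes of this route are switched on together by the transcription factor SREBP2 when a cell is short of sterol. The liver removes cholesterol mainly as bile acids. Their synthesis begins with cholesterol 7α-hydroxylase (CYP7A1) and is held back by bile acids through the receptor FXR and, in mammals, by the intestinal hormone FGF19.

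The HCD array lay alone on 1 slide and the BBR and control arrays lay together on another, so slide and group cannot be told apart, and this holds for every difference below. The signal was well above background at 88.5% to 92.3% of the spots of the 3 arrays, and no spot was saturated. The scanner software had marked 1665 spots as outliers on the HCD array, 1510 on the control array, and 20 on the BBR array. Probes printed in several copies gave an SD of 0.19 for a difference between the 2 arrays from the spots alone. In the 8859 genes with several probes, the SD between the differences of their probes was 0.38. Both are technical spreads within these arrays and do not cover variation between larvae.

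At a threshold of 2-fold, 1207 genes were higher in BBR (4.74% of the genes counted) and 338 were lower (1.33%). The gene lists below can hold only genes with a symbol. Of 12829 such genes counted, 352 were higher and 172 lower, a smaller share higher than over all genes. Among the higher genes, 236 folds were lower bounds, and among the lower genes 38 were. The threshold of 4-fold was passed by 94 higher and 25 lower genes. Of all called genes, 78.1% were higher in BBR, but this share depended on the scaling. Called genes were mostly dim: the median level was −4.43 for higher genes and −2.60 for lower genes, against −1.78 for all genes counted. The median difference of all genes was 0.10, and it was 0.37 in the dimmest of 10 bins of signal against 0.03 in the brightest. Cyclic loess normalization, which removes such a trend with signal, left 630 genes higher in BBR (2.48%) and 566 lower (2.22%), with a median difference of −0.02. Each of these 630 genes was also higher with 75th percentile scaling, and each of the 338 lower genes was also lower after loess. Differences of dim genes are therefore to be read against this median of 0.37, and those of bright genes against one near 0. A second probe of the same gene, which took no part in the call, was measured for 190 higher and 109 lower genes. It differed in the same direction in 174 of the higher and 100 of the lower genes, and reached 2-fold itself in 78 and 55. Both probes were read on the same 2 arrays, and the same shares were not taken over genes that were not called. For dim genes the agreement among higher genes is also to be read against their median of 0.37.

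**Figure D1:**
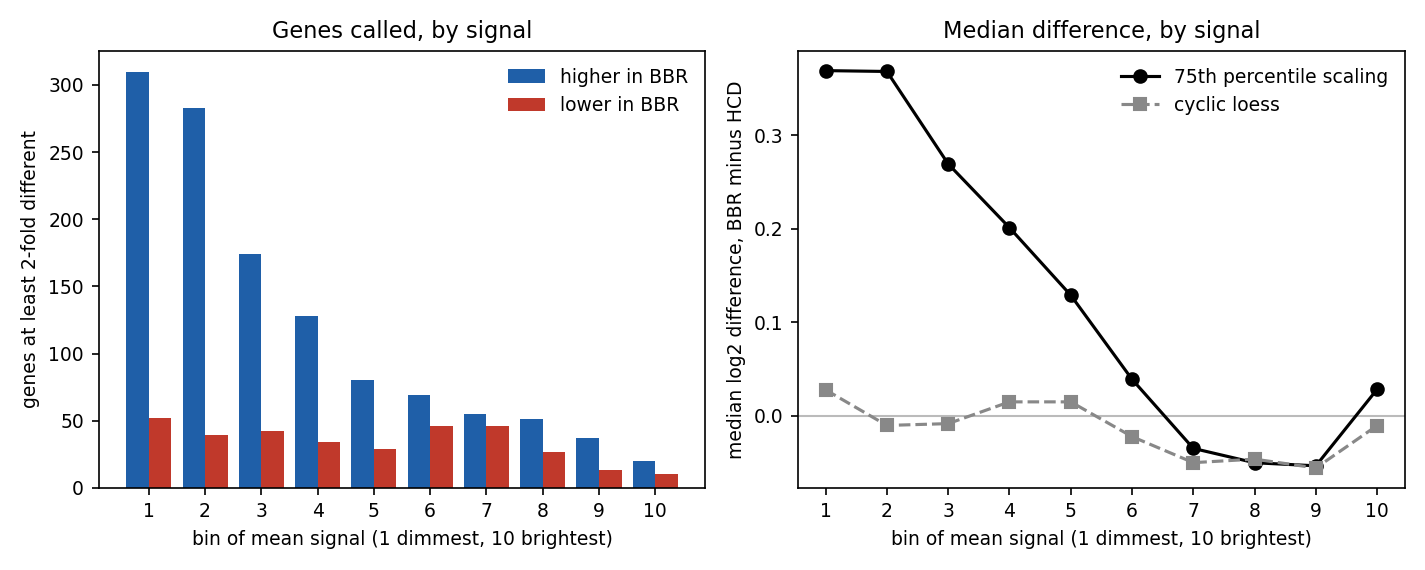
Left, number of genes at least 2-fold higher (blue) or lower (red) in BBR than in HCD in 10 bins of mean log2 signal from dimmest to brightest. Right, median log2 difference, BBR minus HCD, in the same bins with 75th percentile scaling (black) and cyclic loess (grey). Higher calls went from 310 in the dimmest bin to 20 in the brightest, and the median difference went from 0.37 to 0.03.

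The enzymes that make cholesterol were lower in BBR than in HCD at nearly every step. Of the 24 enzymes listed, 22 were measured, all well above background on both arrays. At least 2-fold lower in BBR were 12 of the 22, none was at least 2-fold higher, and 21 had a difference below 0. The median difference was −1.05, a level 2.07-fold lower in BBR. Beside this, 1.33% of all genes counted were at least 2-fold lower, and the median of all genes was 0.10. The mean level of the list was −0.77 in HCD, −1.78 in BBR, and −1.72 in control.

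The largest difference was at squalene epoxidase (*sqlea*), the first oxygen-requiring step after squalene. Its level was −1.54 in HCD, −4.03 in BBR, and −4.03 in control, so BBR was 5.63-fold lower than HCD. Lanosterol synthase (*lss*), which acts next, had levels of −2.33 in HCD, −4.03 in BBR, and −4.76 in control. For *cyp51*, the demethylase of lanosterol, the level was 1.03 in HCD, −0.96 in BBR, and 0.04 in control. BBR was therefore 3.96-fold lower than HCD at *cyp51* and lay below control as well, and the 4 probes of the gene gave differences from −1.99 to −1.45. Sterol C5-desaturase (*sc5d*), a late step, had levels of 1.56 in HCD, −0.17 in BBR, and 0.24 in control. The methylsterol monooxygenase *msmo1* had levels of 1.16, −0.28, and −0.30, and *hsd17b7*, a 3-ketosteroid reductase, had levels of −2.20, −3.62, and −3.21, in the same order. The sterol isomerase *ebp* was 2.42-fold lower in BBR than in HCD, with levels of 0.35 in HCD, −0.92 in BBR, and −0.76 in control.

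By the brightest probe of each gene, steps before squalene were at most 2.97-fold lower, as the plot of these enzymes in pathway order shows. HMG-CoA reductase (*hmgcra*), the rate-limiting enzyme of the route, had levels of 0.75 in HCD, −0.82 in BBR, and −0.50 in control. This is the level of its brightest probe, with a difference of −1.57, and its 3 probes did not behave alike. A nearly as bright probe gave −2.53, with levels of 1.15 in HCD and −1.37 in BBR. The third probe gave 0.73 and was dim, with levels of −4.26 in HCD and −3.54 in BBR. The second reductase gene, *hmgcrb*, differed by −0.10. Acetoacetyl-CoA thiolase (*acat2*) differed by −1.04, HMG-CoA synthase (*hmgcs1*) by −1.05, mevalonate diphosphate decarboxylase (*mvda*) by −1.07, and farnesyl diphosphate synthase (*fdps*) by −1.09, each just past the threshold. Another probe of *mvda* gave −0.19. Short of the threshold were, among others, *lbr* (−0.92), *dhcr7* (−0.82), *tm7sf2* (−0.71), *mvk* (−0.47), *idi1* (−0.45), *fdft1* (−0.30), and *nsdhl* (−0.10). Phosphomevalonate kinase (*pmvk*) was the only member above 0, at 0.40.

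**Figure D2:**
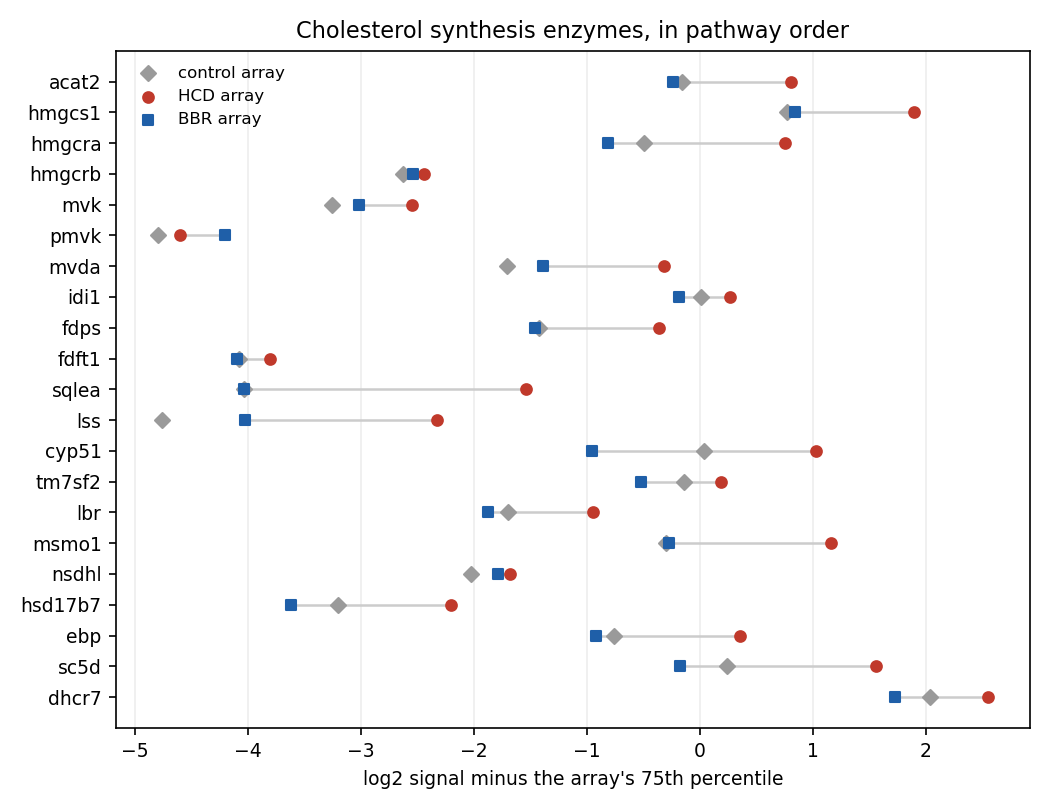
Level of 21 cholesterol synthesis enzymes on the HCD (red circles), BBR (blue squares), and control (grey diamonds) arrays, as log2 signal minus the 75th percentile of the array, with enzymes in pathway order from top to bottom and 1 array per group. The BBR value lies left of the HCD value for 20 of the 21 enzymes drawn, with the widest gap at *sqlea* (−1.54 in HCD and −4.03 in BBR).

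Genes that sense and take up sterols differed little. None of the 16 counted was at least 2-fold different in either direction, and the median was −0.11, or 0.06 where the probes of a gene were averaged. Over all genes counted, 4.74% were higher and 1.33% lower, so few calls are expected in a list of this size. The difference was −0.12 for *srebf2*, which encodes SREBP2, −0.02 for *insig1*, which holds SREBP in the endoplasmic reticulum, and −0.16 for the LDL receptor gene *ldlra*. Their levels in HCD and BBR were 2.57 and 2.45, −0.18 and −0.20, and −2.27 and −2.43. *abcg1*, a sterol exporter, was 1.97-fold higher in BBR, just short of the threshold, with levels of −3.44 in HCD, −2.46 in BBR, and −2.05 in control. Cholesterol 25-hydroxylase genes went in opposite directions. *ch25h* had levels of 0.09 in HCD, −1.35 in BBR, and −2.80 in control, and *ch25hl1.1* had levels of −1.10, 0.23, and 0.66.

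In the list for bile acid synthesis and feedback, 16 of 30 genes were measured, and among them was the gene with the largest difference among the lower genes that had a symbol, were well above background on both arrays, and had no probe moving the other way. A symbol was found for 172 of the 338 lower and 352 of the 1207 higher genes. *fgf19*, the hormone gene, had a level of −1.05 in HCD, −4.21 in BBR, and −1.98 in control, an 8.89-fold lower level in BBR than in HCD. BBR thus lay below both other arrays. *cyp7a1*, for the first enzyme of bile acid synthesis, had a level of −3.32 in HCD, −1.81 in BBR, and −3.50 in control, and was 2.85-fold higher in BBR than in HCD. HCD and control lay close together for this gene, and BBR lay above both. Each gene had a single measured probe. The other members differed by less than 2-fold. The FXR gene *nr1h4* differed by −0.23, its target *nr0b2a* (SHP) by −0.53, the bile acid carrier *slc10a2* by −0.69, the FGF19 receptor gene *fgfr4* by −0.49, and the 12α-hydroxylase gene *cyp8b1.1* by −0.12. *fgf19* is made in the intestine in mammals. Of 28 intestinal genes counted in this tissue, none was at least 2-fold different and 24 had a difference below 0, with a median of −0.21. Over all genes counted, 4.74% were higher and 1.33% lower. Of the 4 intestinal genes above 0, *chia.3* was highest at 0.99, and its other probe gave 1.54. The part of intestinal RNA in the value of *fgf19* was not tested. In bulk RNA, fewer cells of a type and less RNA per cell cannot be told apart.

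Interferon-stimulated genes, which restrict viruses, were the list with the most genes higher in BBR. Of 80 genes listed, 39 were counted, 32 of them on both arrays. At least 2-fold higher in BBR were 12 and none was lower, beside 4.74% of all genes counted that were higher. Of these 12, 4 were counted only through their signal in BBR. Among the genes counted on both arrays 8 were higher and none lower, beside 4.03% higher and 1.25% lower of all such genes. The median difference was 0.64, or 0.52 after cyclic loess, and 33 of the 39 were above 0. The mean level of the list was −2.20 in HCD, −1.08 in BBR, and −1.81 in control. These means, the median, and the 33 include genes counted on 1 array only. The means take each gene at its own signal, also where it was not well above background. Here and in the other lists, a control mean leaves out any gene marked as an outlier on the control array. Such signals, as that of *rsad2* at −8.97 in HCD, lower the HCD mean.

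The ubiquitin-like protein gene *isg15* had a level of −0.49 in HCD, 1.99 in BBR, and 1.63 in control, a 5.58-fold higher level in BBR than in HCD. The Mx GTPases bind viral nucleoproteins in mammals, and their zebrafish genes differed among themselves. *mxe* went from −5.76 in HCD to −2.83 in BBR, with −3.75 in control, a 7.63-fold difference. *mxb* was not well above background in HCD and had a level of −3.60 in BBR and −4.70 in control, so it was at least 8.55-fold higher in BBR. For *mxa* the levels were −3.68, −2.15, and −3.76 in HCD, BBR, and control, while *mxc*, with levels of 3.98, 4.55, and 3.86, differed by 0.57 and *mxg* by −0.24. Viperin (*rsad2*), *herc56.3*, and *ifit8* were likewise not well above background in HCD. They were at least 6.19-fold, 6.15-fold, and 5.03-fold higher in BBR. After another background correction, normexp, the differences were 1.56 for *mxb*, 1.55 for *rsad2*, 1.02 for *herc56.3*, and 1.08 for *ifit8*. In control, *rsad2* and *ifit8* had levels of −3.40 and −3.11, above their levels of −4.07 and −4.37 in BBR.

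The RNA sensors and the signalling genes of the pathway split. *dhx58* (LGP2), a sensor of viral RNA, had levels of −4.88 in HCD, −3.16 in BBR, and −4.34 in control. The kinase *pkz*, which binds Z-form nucleic acid in fish, had levels of −2.10, −0.37, and −1.47. *stat1b* was 4.32-fold higher in BBR, with levels of −0.25 in HCD, 1.86 in BBR, and 0.85 in control, and its other probe gave a difference of 1.99. Its paralogue *stat1a* differed by 0.40 and *stat2* by 0.06. The mitochondrial adaptor *mavs* differed by 0.01 and the interferon regulatory factors *irf9*, *irf7*, and *irf3* by −0.05, 0.73, and 0.90. *ifi27.2* was 2.65-fold and *ifi27.4* 2.37-fold higher in BBR. Lowest in the list was *ftr86*, at −0.46.

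**Figure D3:**
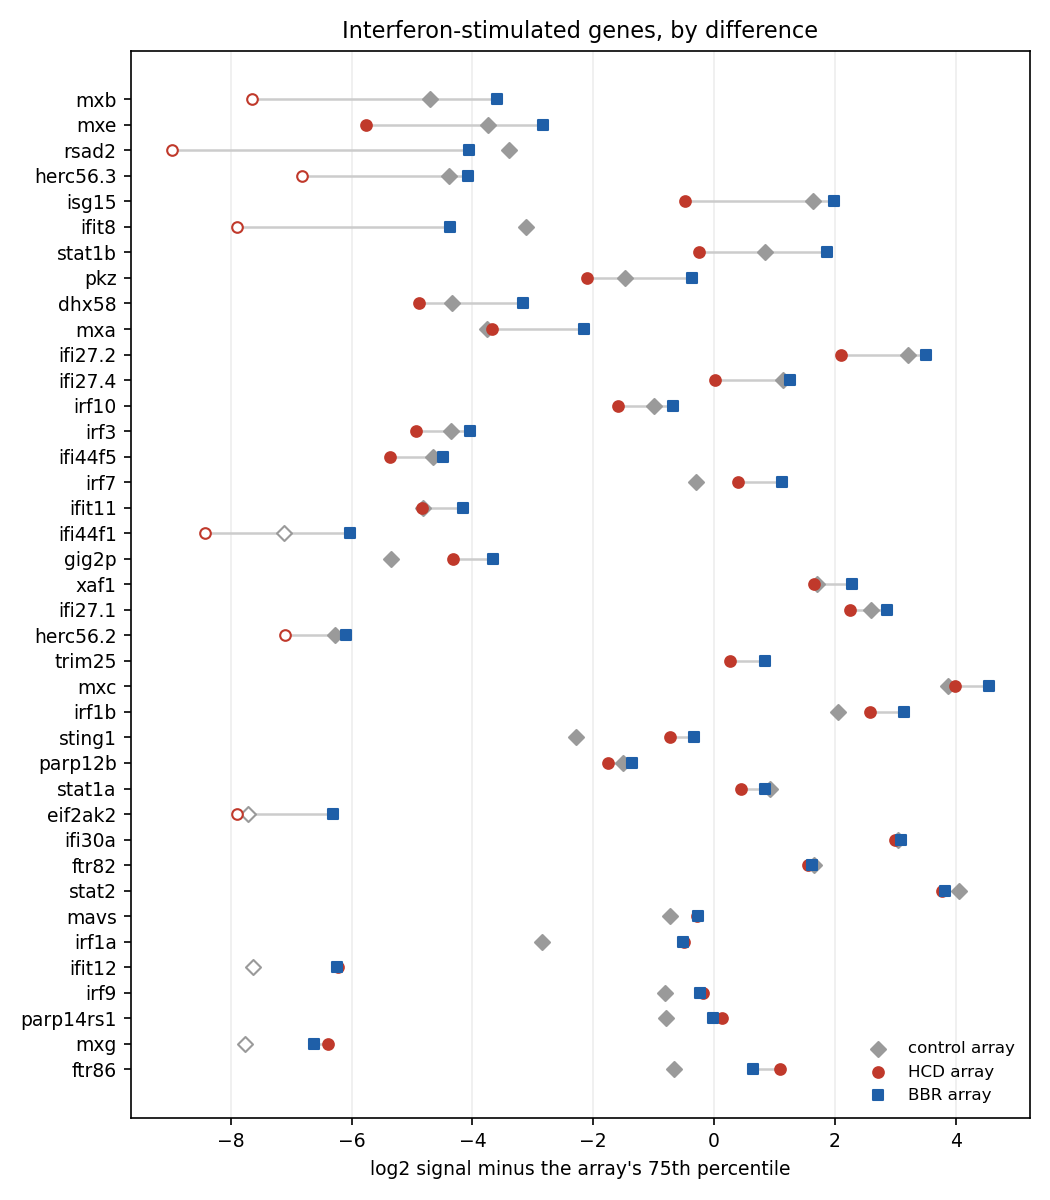
Level of 39 interferon-stimulated genes on the HCD (red circles), BBR (blue squares), and control (grey diamonds) arrays, as log2 signal minus the 75th percentile of the array, ordered by the difference between BBR and HCD. Open symbols were not well above background and are drawn at their own signal, a missing symbol was an outlier, and 12 genes from *mxb* to *ifi27.4* were at least 2-fold higher in BBR.

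Among 29 genes counted for antigen processing and the major histocompatibility complex (MHC), 3 were at least 2-fold higher in BBR and none was lower, beside 4.74% higher over all genes. The peptide transporter *tap2a* was 4.11-fold higher, with levels of −3.32 in HCD, −1.28 in BBR, and −4.67 in control. The class I gene *mhc1uba* had levels of −6.15, −4.25, and −5.41, and the class II gene *mhc2dgb* had levels of −6.14, −4.87, and −6.47. Both were dim, and in the dimmest 2 of the 10 bins of signal 310 and 283 of 2545 genes each were called higher. The difference of *mhc2dgb* fell short of 2-fold under 4 of 10 alternatives, cyclic loess among them. These MHC genes belong to families whose alleles and copies differ between fish of a strain, so their probe signals are uncertain. The list as a whole had a median of 0.11, and of −0.03 with median scaling. The immunoproteasome genes *psmb9a*, *psmb10*, *psmb12*, and *psmb13a* differed by −0.34, −0.09, −0.17, and 0.40. Genes of macrophages and neutrophils, of which 29 were counted, held none that differed at least 2-fold, with a median of 0.17, a mean level of 0.60 in HCD, 0.76 in BBR, and −0.03 in control, and *mpeg1.2* highest at 0.91. Of 40 genes for cytokines, chemokines, and the acute phase, *il6* (1.44), *ccl19a.1* (1.17), *hamp* (1.13), and *timp2b* (1.03) were higher and *crp6* (−1.03) was lower. *il6* was dim, with levels of −6.22 in HCD and −4.79 in BBR, and its difference was 0.39 after normexp with its offset and quantile normalization.

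Many genes of dividing cells were lower in BBR. For mitosis and cell division, 75 of 95 listed genes were counted, of which 25 were at least 2-fold lower and none higher, beside 1.33% lower over all genes (2.22% after loess), and 69 had a difference below 0. The median difference was −0.86, with a mean level of −1.08 in HCD, −1.83 in BBR, and −2.14 in control. Cyclin A2 (*ccna2*) had levels of −0.71 in HCD, −2.18 in BBR, and −2.58 in control, a 2.79-fold lower level in BBR, though another of its 3 probes gave −0.05. The condensin subunit *ncapd3* had levels of −1.18, −2.56, and −2.77. Another condensin subunit, *ncapg*, had levels of −3.79, −5.12, and −4.74, and its other probe gave a difference of −0.45. The spindle checkpoint kinase *ttk* had levels of −0.53, −1.72, and −1.93, and the mitotic kinase *plk1* levels of −0.09, −1.16, and −1.44. The proliferation marker *mki67* was 2.17-fold lower, with levels of 1.402 in HCD, 0.284 in BBR, and −0.246 in control, and its 5 probes ranged from −1.30 to 0.92. The 2 probes of *spc25*, of the kinetochore, gave −1.23 and −1.22. For *racgap1*, which organises the cleavage furrow, BBR was not well above background and was at least 2.59-fold lower. At *ncapg*, BBR lay below control, and at *racgap1* neither BBR nor control was well above background. The BBR level of the other genes named here lay between those of HCD and control. How many of these genes passed 2-fold depended on how probes were combined, since 13 did when the probes of a gene were averaged.

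DNA replication and nucleotide supply held 81 genes counted, with 6 at least 2-fold lower, none higher, and a median of −0.55. The share of all genes that were lower was 1.33%, or 2.22% after loess, and this holds for the repair genes too. Of the GINS complex, part of the replicative helicase, *gins4* and *gins3* were 2.34-fold and 2.30-fold lower, and *gins2* differed by −1.07. *dck*, which salvages deoxynucleosides, had levels of 0.53 in HCD, −0.65 in BBR, and −1.31 in control. *cdk2* differed by −1.08 and the repressor *e2f7* by −1.08. The other probe gave −0.29 for *gins4*, −0.56 for *gins2*, and −0.40 for *cdk2*. When the probes of a gene were averaged, 3 genes of this list were at least 2-fold lower. The list for DNA damage and repair, with 70 genes counted, had 7 at least 2-fold lower, none higher, and a median of −0.27. They were *fancc* (−1.47), *primpol* (−1.43), *rad54l* (−1.17), *rad51ap1* (−1.12), *pif1* (−1.11), *h2ax* (−1.09), and *parpbp* (−1.03), which act in crosslink repair, repriming of stalled forks, homologous recombination, and chromatin marking of breaks. *primpol* had levels of −1.01 in HCD, −2.44 in BBR, and −2.42 in control. The p53 targets, with 31 genes counted, had no gene lower by 2-fold, and their only higher gene was *isg15*, which also stands in the interferon list.

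Matrix genes passed the threshold in both directions. Of 61 collagens, laminins, and related genes counted, 4 were at least 2-fold lower and 2 were higher, beside 1.33% and 4.74% of all genes. The median was −0.38, and 47 of the 61 had a difference below 0. The keratan sulfate proteoglycan lumican (*lum*) had levels of −2.58 in HCD, −4.40 in BBR, and −3.71 in control. The fibrillar collagen genes *col11a1b*, *col1a1b*, and *col2a1b* were 2.94-fold, 2.21-fold, and 2.003-fold lower, and another probe of *col2a1b* gave 1.45. With outlier spots kept, the difference of *col1a1b* was −0.42. The laminin chain *lamc1* and the lysyl oxidase *loxl1* were higher by 1.21 and 1.08. Both were dim, each was at least 2-fold higher under 6 of 10 alternatives, and the difference of *lamc1* was −0.0049 when outlier spots were kept. Because *col2a1b* and *col11a1b* are cartilage genes, a cartilage list was added after the values were seen. Of its 21 genes counted, 4 were at least 2-fold lower and the median was −0.75. It shares *col2a1b* with the matrix list and was prompted by the lower values there. Its count is therefore not separate support for lower cartilage genes. The cartilage proteoglycan epiphycan (*epyc*) had levels of 1.85 in HCD, 0.15 in BBR, and 1.33 in control. The part of cartilage RNA in the values of the matrix genes was not tested.

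**Figure D4:**
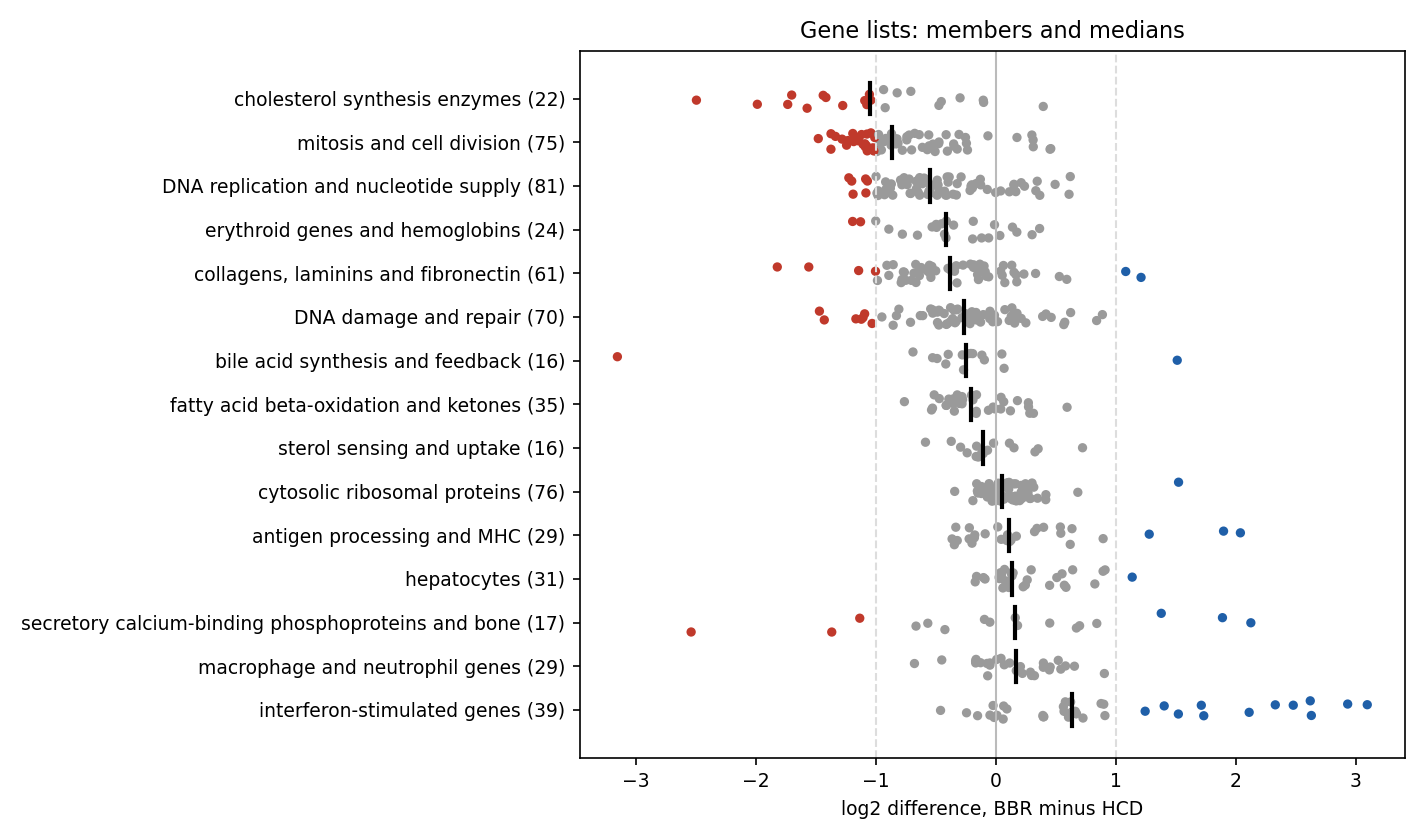
Log2 difference, BBR minus HCD, of each member (points) of 15 gene lists with the list median (black line), with the number of genes counted in brackets, blue points at least 2-fold higher in BBR, red points at least 2-fold lower, and dashed lines at 2-fold. The median was −1.05 for cholesterol synthesis, −0.86 for mitosis, and 0.64 for interferon-stimulated genes, against 0.10 for all genes counted.

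Outside these lists, the gene with the largest difference among the higher genes with a symbol, a signal well above background on both arrays, and no opposing probe was *pth1a*, for a parathyroid hormone, which regulates calcium. Its level was −4.995 in HCD, −1.870 in BBR, and −4.741 in control. BBR was 8.73-fold higher than HCD, and the other probe of the gene gave a difference of 3.46. HCD and control lay near each other. No other gene of the list for parathyroid hormone and calcium was called. Of its 15 genes counted, 12 were counted on both arrays, and 14 were above 0. The median of the list was 0.44, or 0.21 after quantile normalization, and its mean level in HCD was −2.58. These values are to be read against the higher median difference of dim genes. *nab2*, a corepressor of early growth response factors, had levels of −6.47 in HCD, −4.09 in BBR, and −6.02 in control. Its difference was 0.92 after normexp with its offset and quantile normalization. The anion exchanger *slc4a2a* (−5.69, −3.38, and −4.97 in HCD, BBR, and control) and *adat2*, a subunit of a tRNA deaminase (−4.97, −2.82, and −4.92), showed the same order, with BBR alone high. *ggt1a*, for a γ-glutamyltransferase that breaks down extracellular glutathione, was 4.77-fold higher, with levels of −4.60 in HCD, −2.34 in BBR, and −3.32 in control. Well above background in BBR only were *btg4*, an mRNA decay factor of the oocyte and early embryo, and *rragd*, a Rag GTPase that acts on mTORC1 at the lysosome. They were at least 5.49-fold and 5.07-fold higher. Of the genes whose symbols tell no function, *si:ch211-276k2.1* had levels of −1.64 in HCD, 1.13 in BBR, and 1.14 in control, and *zgc:92590* of −1.72, 0.86, and 0.01.

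Among the genes lower in BBR, *scpp7* had levels of −0.28 in HCD, −2.82 in BBR, and −3.23 in control, a 5.81-fold lower level in BBR than in HCD. It belongs to the secretory calcium-binding phosphoproteins, a family of tooth, scale, and bone matrix. The family did not move as one. Of 17 of its genes and other bone genes counted, *scpp9* (2.13), *odam* (1.89), and *sp7* (1.38), the last the bone transcription factor osterix, were higher, and *scpp7* (−2.54), *enam* (−1.37), and *spp1* (−1.13), the last osteopontin, were lower. Over all genes counted, 4.74% were higher and 1.33% lower. The difference of *sp7*, a dim gene, was 0.61 after normexp. *scpp9* had levels of −1.997, 0.128, and 0.634 and *odam* of −1.98, −0.09, and 0.34 in HCD, BBR, and control. The ribonuclease gene *rnasel4* was 4.88-fold lower in BBR, with levels of 0.84, −1.44, and −1.53. Transglutaminase 2 (*tgm2a*), which crosslinks proteins, had levels of 0.57, −1.62, and −0.46. The intelectins *itln1* and *itln2*, lectins that bind microbial sugars, differed by −2.18 and −1.81, and the other probe of *itln1* gave −1.74. Retinol saturase (*retsat.1*) had levels of −0.42, −2.33, and −2.84. *rspo4*, a secreted enhancer of Wnt signalling, had levels of −3.36, −5.15, and −3.90, below both other arrays in BBR. The fast muscle troponin gene *tnni2a.3* had levels of 0.11, −1.70, and 0.15, with BBR alone low. *tbpl2*, *plac8.2*, and *si:rp71-15k1.1* completed the 15 lower genes named, with differences of −2.05, −1.77, and −1.76. After normexp, the difference of *tbpl2* was −0.67. The brightest probe of *zgc:153642* was not well above background in BBR and was 6.15-fold lower by its own signals. The other probe of this gene was well above background on both arrays and gave −2.49. The coagulation gene *f13a1a.1*, not well above background in BBR, was at least 3.47-fold lower, but its difference was −0.77 after normexp.

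**Figure D5:**
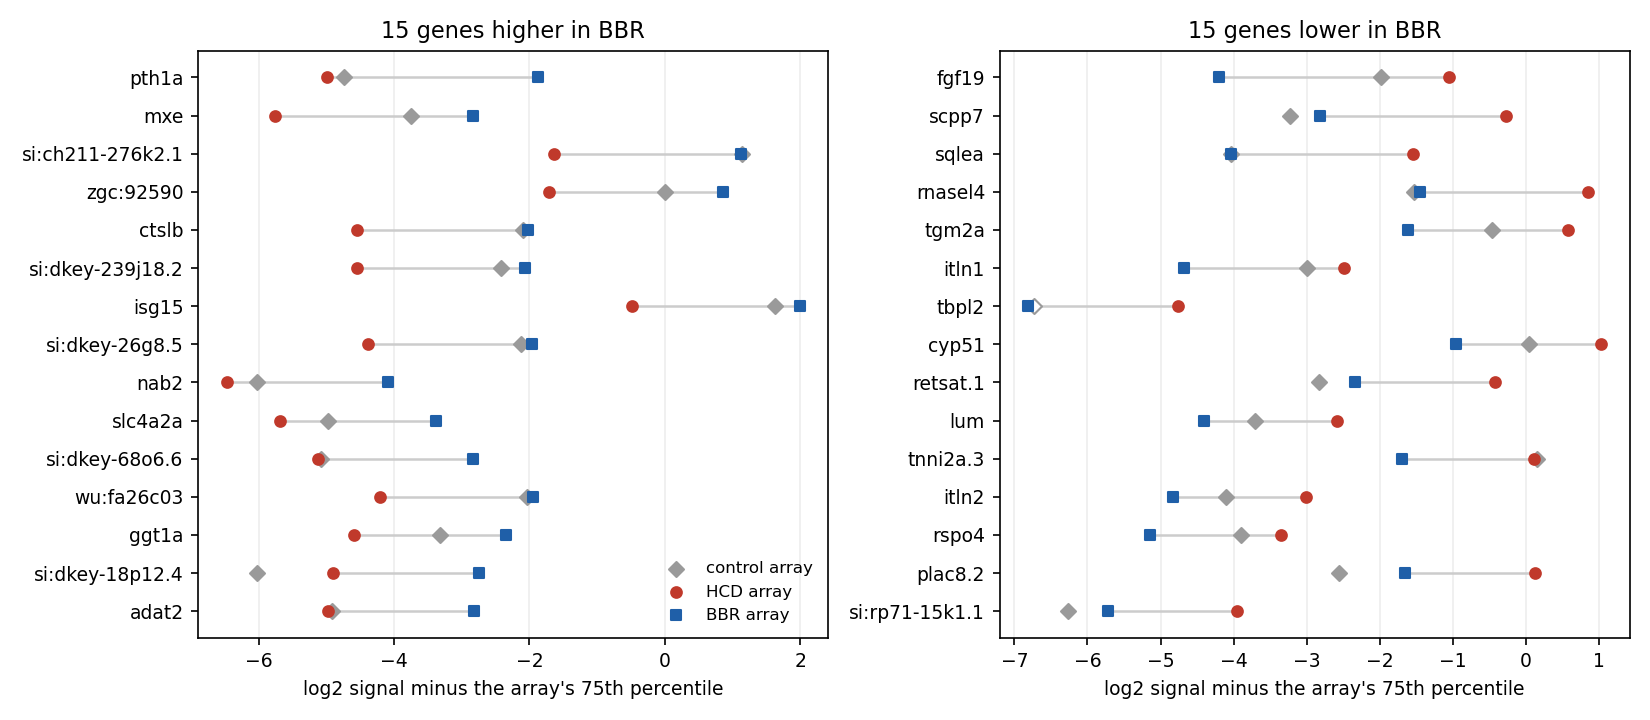
Level of the 15 genes with a symbol and no opposing probe that were most increased (left) and most decreased (right) in BBR against HCD, on the HCD (red circles), BBR (blue squares), and control (grey diamonds) arrays, as log2 signal minus the 75th percentile of the array. Only genes well above background on the HCD and BBR arrays are drawn, from *pth1a* (−4.995 in HCD and −1.870 in BBR) and *fgf19* (−1.05 and −4.21) downwards, and the open diamond at *tbpl2* was not well above background.

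Some higher genes lie side by side in the genome. Among 12829 genes counted and placed in the order of the GRCz12tu assembly, 1 run of 6 consecutive higher genes and 2 runs of 3 were found after the values were seen, and no run of 3 or more lower genes. The run of 6 held cathepsin L genes. *ctslb* had levels of −4.55 in HCD, −2.02 in BBR, and −2.09 in control, and its 4 probes gave 0.86 to 2.52. Its neighbours *si:dkey-239j18.2*, *si:dkey-26g8.5*, *wu:fa26c03*, *MGC174155*, and *zgc:174855* were higher by 2.48, 2.42, 2.26, 1.89, and 1.52. The BBR and control levels of these genes lay close to each other, as *wu:fa26c03* shows with −4.20 in HCD, −1.94 in BBR, and −2.04 in control. Near-identical copies can share signal on a probe, so it is uncertain how many of these genes differed. No other gene of the 41 counted for lysosomal cathepsins and hydrolases passed 2-fold. The second run held *jac6*, *jac9*, and *jac8*, higher by 1.90, 1.77, and 1.59, which are likewise copies of a kind. *jac6* had levels of −2.05, −0.15, and −0.22 in HCD, BBR, and control. The third held *timp2b*, an inhibitor of metalloproteinases (1.03), and the galectin-3-binding proteins *lgals3bp.3* (1.55) and *lgals3bp.2* (1.096). The 4 probes of *lgals3bp.2* did not behave alike, with differences from −1.05 to 1.096. Their mean was −0.21, with which this run would not be found.

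Genes of drug metabolism were called in both directions. Of 32 cytochrome P450 genes of families 2, 3, and 4, 4 were higher, namely *cyp2k6* (1.73), *cyp2aa7* (1.43), *cyp2p7* (1.23), and *cyp2aa9* (1.13), and none was lower, beside 4.74% higher over all genes (2.48% after loess). *cyp2aa9* fell short of 2-fold under 5 of 10 alternatives, with a difference of 0.21 when outlier spots were kept. *cyp2aa7* had levels of −1.87 in HCD, −0.44 in BBR, and −2.39 in control. *cyp1a*, the main target of the aryl hydrocarbon receptor, had levels of 2.860, 1.504, and 3.413, a 2.56-fold lower level in BBR, and its 3 probes gave −1.63 to −1.36. No other gene of the 14 counted for this receptor was called. In the list for glutathione and antioxidant enzymes, 46 of 48 genes were within 2-fold. The exceptions were *ggt1a* and the endoplasmic reticulum peroxidase *gpx7*, which had levels of −0.34 in HCD, −1.75 in BBR, and −1.46 in control.

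Lipid storage and carriage differed at single genes. The counts of this paragraph, those of no call included, stand beside 4.74% of all genes higher and 1.33% lower. The lipid droplet proteins *plin2* and *g0s2*, the second an inhibitor of triglyceride lipase, were 2.08-fold and 2.11-fold lower in BBR. *g0s2* had levels of 1.01 in HCD, −0.07 in BBR, and −3.50 in control, and *plin2* of −0.44, −1.49, and −2.86, so BBR lay nearer to HCD than to control for both. The other 20 genes of this list were not called. Of 26 apolipoprotein and lipoprotein genes, *apodb* (1.13) and the phospholipid transfer protein *pltp* (1.07) were higher, and *pltp* had levels of −0.75, 0.31, and 1.19. None of 26 genes of fatty acid synthesis, 35 of β-oxidation, or 10 fatty acid binding proteins was called. Nearest to the threshold were the elongase *elovl2* at −0.98 and *thrsp*, which promotes lipogenesis in mammals, at 0.89 or more. *thrsp* was well above background in BBR only, and its own signals differed by 1.67. The peroxisomal enzyme *ehhadh* followed at −0.76. Fructose bisphosphatase *fbp2* was the only 1 of 46 genes of glycolysis and gluconeogenesis called, with a 2.32-fold lower level in BBR and levels of 2.85 in HCD and 1.63 in BBR.

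The remaining lists held few calls, and their counts of higher and lower genes stand beside 4.74% and 1.33% of all genes. The circadian genes *cry5*, *hlfb*, and *per1a* were higher by 1.24, 1.08, and at least 1.06, of 39 counted. With quantile normalization, median scaling, cyclic loess, and normexp, *hlfb* and *per1a* fell short of 2-fold. Of 54 heat shock genes, *hspa8b* (1.34) and *hspa9* (1.13) were higher, and the small heat shock protein *cryaba* was lower (−1.54). *mat2ab*, for methionine adenosyltransferase, was higher (1.09) and *csad*, for taurine synthesis, was lower (−1.24) among 78 genes of amino acid breakdown. Of amino acid carriers, *slc38a3a* was higher (1.05) and *slc7a6* lower (−1.29). The mitochondrial carriers *slc25a23b* and *slc25a38b* were higher by 1.98 and 1.05, although another probe of *slc25a38b* gave 0.10. *mat2ab* was at least 2-fold higher under 6 of 10 alternatives, and *slc25a38b* under 5 of 10. Complement genes *c1r* and *c3a.1* were higher by 1.28 and 1.14, although another probe of *c3a.1* gave 0.06. *rps8b* (1.52) was the only 1 of 76 ribosomal protein genes called. *rargb* (1.05), *irs2a* (1.00), *lrrc23* (at least 1.87), and *ak7b* (1.19) were dim genes above the threshold in the retinoid, insulin, and cilium lists, and *rpe65c* (−1.03) was lower. At least 2-fold higher under 6 of 10 alternatives were *rargb* and *irs2a*, and under 7 of 10 *ak7b* and *c1r*. No gene was called among 54 for endoplasmic reticulum stress and folding, 74 of the respiratory chain, 46 of the proteasome, 40 liver transcription factors, 21 for NF-κB and STAT3 feedback, and 16 for itaconate, nitric oxide, and oxidases. Of 36 iron genes, the hormone gene *hamp* alone was called, with levels of −1.37 in HCD, −0.24 in BBR, and −0.46 in control.

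All 31 hepatocyte markers counted were well above background on both arrays, with a mean level of 2.77 in HCD, 3.05 in BBR, and 2.75 in control, and *c3a.1* was the only 1 called. Markers of other tissues were also well above background. The mean level of the exocrine pancreas markers (30 counted) was 2.75 in HCD and 3.09 in BBR, with *cpa5* (1.21), *cpa1* (1.13), and *amy2al1* (1.02) higher, and that of skin and other epithelium (32 counted) was 2.82 and 3.10, with *evpla*, *anxa1b*, *krt92*, and *krt8* higher by 1.13 to 1.26. With outlier spots kept, the difference was 0.36 for *cpa5*, 0.72 for *cpa1*, 0.10 for *krt92*, 0.16 for *krt8*, and 0.35 for *c3a.1*, all short of 2-fold. The higher genes of these lists, 3 of 30 and 4 of 32, stand beside 4.74% of all genes. Skeletal muscle markers (34 counted) had a mean of 3.29 in HCD and 3.20 in BBR, and *tnni2a.3* and *pvalb3* (−1.01) were lower. Erythroid genes (24 counted) had a median of −0.41, a mean level of −0.48 in HCD, −0.85 in BBR, and −0.97 in control, and *epb41b* (−1.19) and *nt5c2l1* (−1.13) lower. In the lists for endocrine pancreas and adipocytes, *sst2* (1.12) and *lepb* (1.02) were higher. The dim genes *lepb* and *amy2al1* were each at least 2-fold higher under 6 of 10 alternatives. Crystallins, the proteins of the eye lens, were listed after the values were seen. Of 40 counted, 35 were within 2-fold, with *crygm2d11* higher (1.08) and *crygmxl1* (−1.60), *cryaba*, *crybb2* (−1.17), and *crybb1l3* (−1.15) lower. The lower genes of the muscle, erythroid, and crystallin lists stand beside 1.33% of all genes, or 2.22% after loess. The part of these tissues in the differences between BBR and HCD, those of the mitotic genes included, was not tested.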

How the data were processed

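Liver RNA was labelled with Cy3 and hybridized to single-colour Agilent zebrafish V3 4×44K arrays. The authors deposited the processed intensity of each spot, background-subtracted by Feature Extraction (version 11.5.1.1 in the file headers, 10.7 in the submitters' processing notes), with marks for background and outliers. GeneSpring log2 values deposited beside it equal the log2 of this intensity less each array's 75th percentile, with no centring of genes.

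The members and gene lists were chosen with earlier results of these data known. Control spots were removed, spots of a probe were averaged as log2 processed intensity, and each array's 75th percentile over 43603 probes was subtracted. Probes with an outlier spot on the HCD or BBR array were left out (1659). The brightest probe on these arrays stood for its gene. RefSeq accessions, matched to a table of the GRCz12tu assembly, gave 13242 of 27713 genes a symbol. Its coordinates served only to order neighbouring genes and none is printed, since the array was designed on another build. The other genes were counted but are not named, and 1 cholesterol synthesis enzyme, which is in the counts of its list, is not reported here.

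Named were the 15 genes with a symbol and the largest difference in each direction among those well above background on both arrays with no measured probe moving the other way, the 5 with the largest lower bound in each direction, and up to 6 called members of each of 51 lists, or 2 where none was called. Further list members and the neighbouring genes were named after their values were seen, as were all of 2 added lists (crystallins and cartilage). The rule for lists was applied to the 2 added lists as well.

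With 1 array per group no test was run. Alternatives were quantile normalization, median scaling, the 75th percentile over probes well above background on both arrays, cyclic loess (3 iterations), other filters on dim probes, probes taken singly or averaged by gene, the deposited log2 values, normexp (offset 50, on median spot intensity) with quantile normalization, outlier spots kept, and thresholds of 1.5-fold and 3-fold. The normalizations came from limma 3.58.1 in R 4.3.3 and the rest from Python 3.11.15 with numpy 2.4.6 and pandas 2.3.3. The steps were tested on simulated data. The simulated noise was smaller than the spread between probes here and had no trend with signal. That test therefore does not show how well calls near 2-fold hold in these data.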

Additional observations from a re-analysis of the deposited data

How the results depend on the processing

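The counts at 2-fold (1207 higher, 338 lower, 78.1% higher) moved with the scaling, the background correction, the filter, and the threshold. They were 612 higher and 615 lower (49.9% higher) after quantile normalization, 770 and 531 (59.19%) with median scaling, and 630 and 566 (52.7%) after cyclic loess. Normexp with quantile normalization gave 309 higher (56.5%), of which 299 were among the 1207, and 238 lower. Without a filter or floor, 2128 were higher (82.6%). The threshold of 1.5-fold gave 4193 and 1266, and that of 3-fold gave 208 and 68 (75.4%). The mitosis genes at least 2-fold lower were 38 with median scaling and 13 with the mean of the probes, against 25. Those for DNA replication were 11, 17, 10, and 3 with quantile normalization, median scaling, cyclic loess, and the mean of the probes, against 6. The cholesterol enzymes stayed between 9 and 14 lower, and the interferon-stimulated genes between 8 and 15 higher. Of 1546 values of the 156 genes named by rule under the alternatives, 1422 moved by less than the spread between probes, and *lamc1* changed sign, to −0.0049, with outlier spots kept. The 156 include called members of the crystallin and cartilage lists, which were added after the values were seen. Other genes named after their values were seen are not among the 156. Of these others, *lgals3bp.2* changed sign, to −0.21, with the mean of its probes. Of 132 genes named by rule and at least 2-fold different, 69 were so under every alternative that gave them a value, among them *pth1a*, *fgf19*, *sqlea*, *cyp51*, *cyp7a1*, and *isg15*. Probes taken singly gave no value for a gene. Genes well above background on 1 array only, such as *mxb* and *rsad2*, had none where both arrays were required, and this was not held against them. For lists with a median near 0, the sign depended on the setting. No paired analysis was possible because each group has 1 array. No fit with slide as a block was possible, because the only HCD array was on a slide of its own. Precision is limited by having 1 array per group.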
